A study of Mus musculus with 4 samples.

Results

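The secreted and membrane-bound matrix metalloproteinases were examined together with their natural inhibitors in mouse osteoblasts in which glucosylceramide synthase was inhibited. The members were all genes named Adamts, Mmp or Timp with a number and no further suffix than a or b (for Timp, the numbers 1 to 4). They were found by matching the RefSeq accession of each probe to a gene symbol. Of 46 such genes in the reference table, 45 had a probe: 19 Adamts, 22 Mmp and 4 Timp genes, out of 22911 named genes, and Mmp27 was not analysed here. The cells were MC3T3-E1, an osteoblastic line derived from mouse calvaria. The groups, with 1 Agilent one-colour array each, were Control cells, for which the labels name no vehicle, cells with Miglustat at 50 µM, cells with D-PDMP at 10 µM and cells with D-PPMP at 1.0 µM. After 4 days of treatment the cells were replated and cultured for another 24 h, and the labels do not say whether the inhibitor was then still present. All 3 compounds inhibit the enzyme that joins glucose to ceramide. Miglustat is an iminosugar, and D-PDMP and D-PPMP are ceramide analogues that differ in the length of their acyl chain. The series asks which molecules depend on this enzyme in osteoblasts.

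Mmp enzymes are zinc endopeptidases made as inactive precursors. Together they cut collagens, gelatin, proteoglycans and many pericellular proteins. Adamts enzymes are related secreted proteases with thrombospondin repeats, some of which cut the large proteoglycans versican and aggrecan, while others remove the amino-terminal propeptides of fibrillar procollagens. Timp proteins bind the active site of these enzymes. Timp3 is the one that is held in the extracellular matrix and that also inhibits Adamts enzymes. In bone, Mmp13 and Mmp14 are known for their part in matrix turnover by cells of the osteoblast lineage.

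A level is the log2 of the spot's processed signal minus the 75th percentile of its array, and a difference is the level with an inhibitor minus that in Control. Since each group is a single array, no spread between replicates is known and nothing was tested. The scanner software gives an error to each signal. For members well above background on both arrays, the error of a difference derived from it was mostly 0.204, and 0.385 at the highest. The SD of log2 signals between spots of a probe printed several times was 0.0524 to 0.0573 for bright probes. Neither covers the spread between cultures. Differences of 1.5-fold (0.585 on the log2 scale) and of 2-fold are counted for members well above background on both arrays. The inhibitors were used at different concentrations, so their values stand side by side: the order of the arrays is given as a description and not as a comparison of compounds. The 3 comparisons also share the Control array.

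The arrays had 57.4% to 62.4% of probes well above background, lowest in Control and highest with D-PPMP, and no saturated spot. All 4 were on 1 slide, at positions 1 to 4 in the order Control, Miglustat, D-PDMP, D-PPMP, and the effects of position and group cannot be told apart. Of 10 osteoblast markers, 7 were well above background on all arrays, among them Runx2, Col1a1 and Spp1. Alpl and Ibsp, markers of the mature osteoblast, were so on none. Of the lists for other cell types, skeletal muscle had 0 of 5 markers above background on all arrays, endothelium 1 of 5, epithelium 1 of 5, adipocytes 2 of 5, chondrocytes 2 of 6, macrophages 3 of 6 and osteoclasts 3 of 7. Among the latter 2 lists were Csf1r, Cd68, Cd14, Oscar and Ctsk, while Ptprc and Adgre1, which define leukocytes and macrophages, were above background on no array. Summed linear levels of the macrophage list were 3.38 to 3.66. Those of the osteoclast list, largely Ctsk, were 14.7 in Control, 15.0, 12.8 and 11.8. Those of the osteoblast list were 1507, 1401, 1325 and 1272.

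Of the 45 members, 23 were well above background on all 4 arrays, 4 on some arrays and 18 on none. In each comparison with Control, 23 of the 45 were well above background on both arrays. Of all 22911 named genes, 14171 were so for Miglustat, 14154 for D-PDMP and 14200 for D-PPMP. The counts by family and role below are small and are given as a description. The 23 held all 4 Timp genes, 12 of 19 Adamts genes and 7 of 22 Mmp genes. By role, they included 5 of 7 proteoglycan-cutting Adamts genes and 2 of 3 procollagen propeptidases, but 0 of 4 secreted collagenases (Mmp1a, Mmp1b, Mmp8 and Mmp13). Mmp1a, Mmp1b and Mmp13 were above background on no array. Mmp13, the main interstitial collagenase of rodents, was at levels of -7.23 in Control, -7.59 after Miglustat, -5.56 after D-PDMP and -6.95 after D-PPMP. Mmp3, the stromelysin that cuts proteoglycans and activates other Mmp precursors, had levels of -7.42, -7.55, -7.52 and -7.54 in that order. Mmp9, the gelatinase typical of osteoclasts, was at -6.04, -6.84, -6.69 and -5.76 on its brightest probe. None of these 12 levels was well above background, and the order of such levels carries no information. Over the 18 members not detected, levels lay between -7.65 and -5.31.

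**Figure D1:**
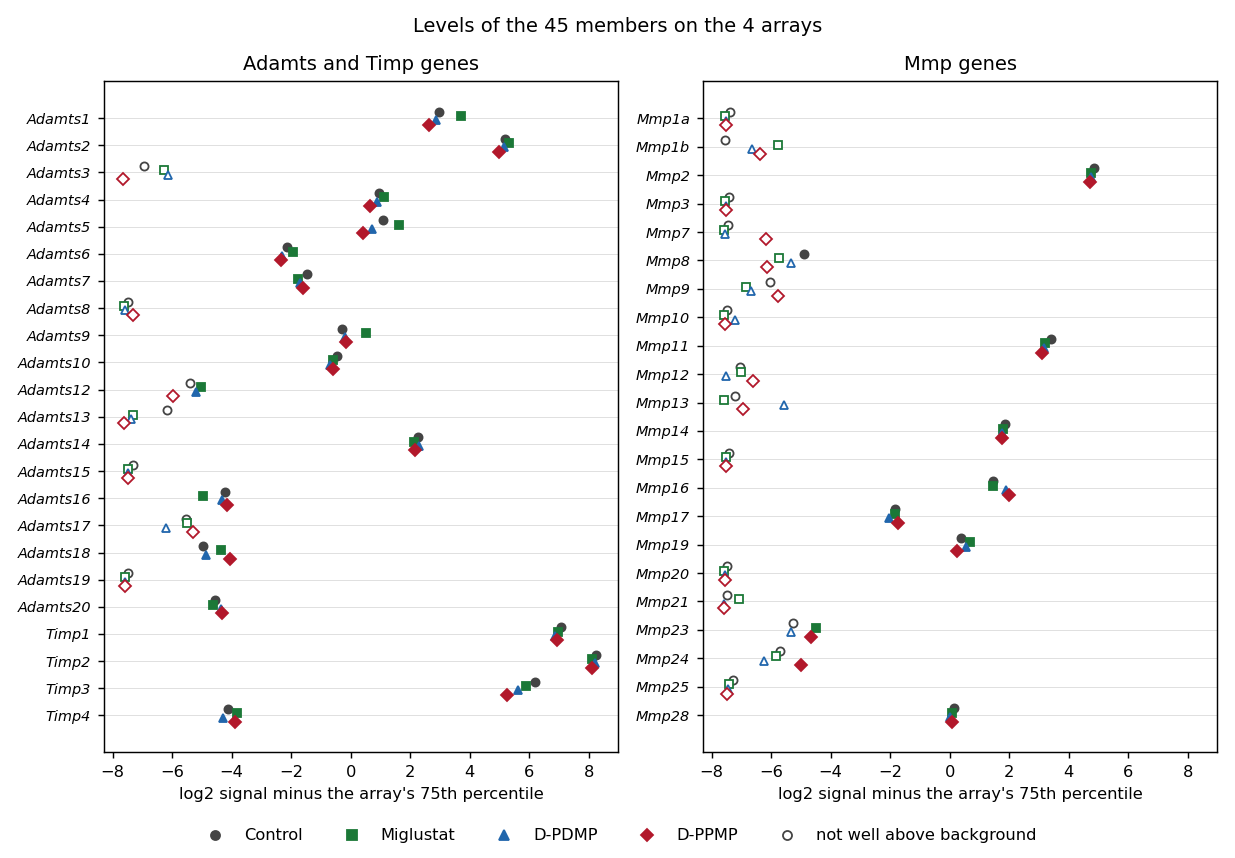
Level of each member on each array (x axis: log2 signal minus the array's 75th percentile; 1 array per group, so no error bars), with Adamts and Timp genes on the left and Mmp genes on the right. Filled symbols are well above background and open ones are not; the 18 members with 4 open symbols include Mmp3, Mmp9 and Mmp13, and only the position within a row can be compared, not one row with another.

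The detected and undetected members also differed in their promoter sequence, largely through a group of related Mmp genes. Promoter sequence is a property that the choice of members did not use. RefSeq promoter windows of build GRCm38.p6, from 250 bases before to 50 after a gene's start, were in the table used here for 31 of the 45 members. The letters of an AP-1 site (TGANTCA, the same on both strands) stood in 8 of the 14 members with a window that were detected on no array, and in 0 of 13 detected on all arrays. Over all 27025 genes of the table the share was 8.97%. The 8 were Mmp1a, Mmp1b, Mmp3, Mmp7, Mmp10, Mmp12, Mmp13 and Mmp20. They lie together on chromosome 9 and descend from common ancestors, so they are not independent cases; the only other member there with a window, Mmp8, had no such letters. The letters TATAAA, on either strand, stood in 9 of the 14 undetected and in 1 of the 13 detected members, against 15.7% of all genes. The letters of a GC box (GGGCGG, either strand) showed the opposite split, with 4 of 14 undetected, 12 of 13 detected and 38.2% of all genes. These splits rest on the same 8 genes and are not separate findings: all 8 had TATAAA and none had a GC box. The other undetected members with a window were Adamts3, Adamts13, Adamts17, Mmp15, Mmp21 and Mmp25. Of these, Mmp21 had TATAAA, while Adamts3, Adamts13, Mmp15 and Mmp25 had a GC box. CCAAT, on either strand, stood in 2 of 14 and 5 of 13, against 41.1%. The motifs were chosen after the levels had been seen, a match of letters is not a bound site, and no test was made.

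The split is visible in windows from 100 bases before to 10 after the start, with the letters of AP-1 sites, TATAAA and GC boxes in capitals. Shown are 4 undetected members, Mmp13 (chr9:7272414-7272523, plus strand), Mmp3 (chr9:7445722-7445831, plus strand), Mmp10 (chr9:7502242-7502351, plus strand) and Mmp1a (chr9:7464041-7464150, plus strand), and then 2 detected ones, Mmp14 (chr14:54431498-54431607, plus strand) and Timp2 (chr11:118355402-118355511, minus strand).
Mmp13: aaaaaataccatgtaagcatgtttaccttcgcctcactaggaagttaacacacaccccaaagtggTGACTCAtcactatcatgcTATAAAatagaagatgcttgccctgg
Mmp3: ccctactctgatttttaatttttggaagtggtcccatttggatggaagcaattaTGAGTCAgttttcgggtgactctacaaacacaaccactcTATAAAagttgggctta
Mmp10: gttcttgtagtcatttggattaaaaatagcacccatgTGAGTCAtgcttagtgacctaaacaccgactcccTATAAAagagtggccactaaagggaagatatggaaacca
Mmp1a: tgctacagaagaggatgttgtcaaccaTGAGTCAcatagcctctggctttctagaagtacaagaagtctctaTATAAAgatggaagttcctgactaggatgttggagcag
Mmp14: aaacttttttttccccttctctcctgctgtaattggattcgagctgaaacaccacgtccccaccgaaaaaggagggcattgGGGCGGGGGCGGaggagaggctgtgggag
Timp2: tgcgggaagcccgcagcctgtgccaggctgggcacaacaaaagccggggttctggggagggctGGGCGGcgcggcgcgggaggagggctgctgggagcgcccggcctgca
In the 4 undetected members, all from the chromosome 9 group, an AP-1 match is followed downstream by TATAAA. The windows of Mmp14 and Timp2 hold GC boxes and neither of the other motifs. The genes of the AP-1 subunits were detected: Fos, Fosb, Fosl1, Fosl2, Jun, Junb and Jund were all well above background on the 4 arrays.

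**Figure D2:**
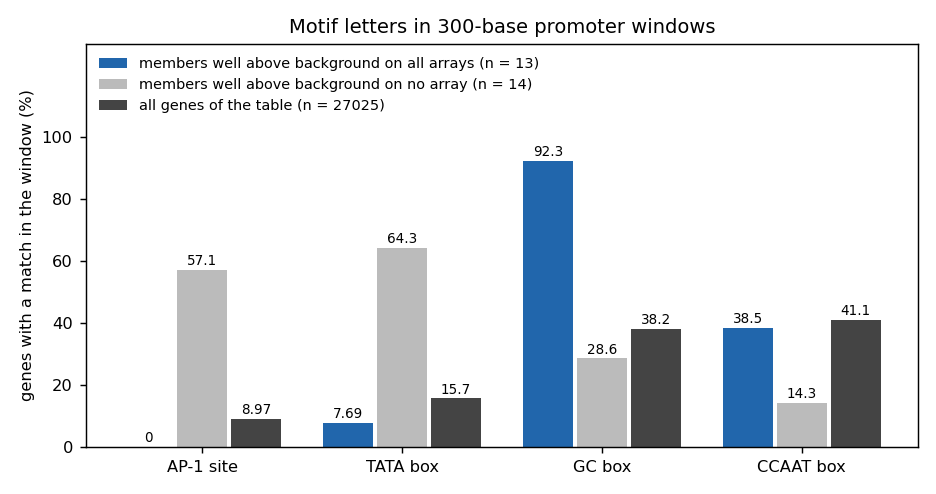
Share of genes with a match of each motif in the 300-base promoter window (y axis, percent, from 0), for members well above background on all arrays (13), on no array (14) and for all 27025 genes of the table. AP-1 letters stand in 57.1% of the undetected and 0% of the detected members, and GC box letters in 28.6% and 92.3%. The undetected members with AP-1 letters are related genes on chromosome 9, all with TATAAA and none with a GC box, so the splits are not independent.

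The RNA came from whole cultures, so fewer cells expressing a gene and less of its RNA per cell cannot be told apart. No member differed 2-fold from Control among the 23 measured on both arrays in each comparison. Over all genes the shares that did were 0.388% of 14171 after Miglustat, 0.325% of 14154 after D-PDMP and 0.507% of 14200 after D-PPMP. At 1.5-fold, 4 of 23 members were counted with Miglustat, 3 higher and 1 lower, against a background of 2.68% of all genes (1.57% higher and 1.11% lower). With D-PDMP the count was 0 of 23, where the background was 2.54% (1.34% higher and 1.2% lower). With D-PPMP it was 3 of 23, 1 higher and 2 lower, against 3.44% (2.27% higher and 1.18% lower). The split of all genes depended on the scaling: with Miglustat 223 were higher and 157 lower, but 139 and 201 under quantile normalization, and with D-PPMP 322 and 167 became 145 and 361. With D-PDMP 189 and 170 became 116 and 264. Cyclic loess gave 157 and 207, 116 and 252, and 138 and 348 in the order Miglustat, D-PDMP, D-PPMP, and normexp background correction 38 and 15, 10 and 23, and 21 and 38. Under quantile normalization the members counted with Miglustat became 2 higher and 1 lower, since Adamts18 was at 0.45, and the counts for the other compounds were as before. Median differences over the 23 members were -0.06 after Miglustat, -0.10 after D-PDMP and -0.12 after D-PPMP, beside medians of -0.02, -0.001 and -0.01 over all genes. Below Control lay 14, 17 and 16 of the 23, against 55.5%, 50.4% and 51.5% of all genes. The 12 Adamts genes had medians of 0.16, -0.07 and -0.14, and the 7 Mmp genes -0.06, -0.10 and -0.12.

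**Figure D3:**
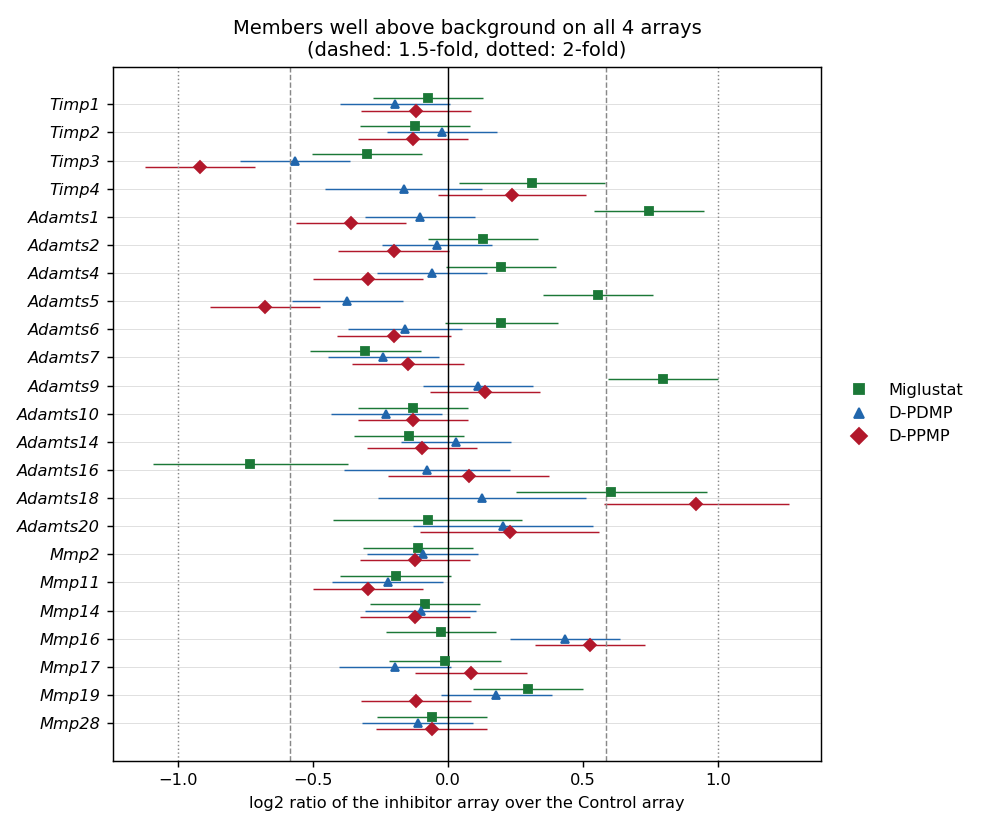
Difference from Control (x axis, log2 ratio of 2 arrays) of the 23 members well above background on all arrays, with Timp genes at the top, then Adamts and Mmp; bars are the error from the scanner software, not a spread between cultures, and lines mark 1.5-fold and 2-fold. Timp3 lies left of Control with each inhibitor, down to -0.92 with D-PPMP, and Adamts1 and Adamts9 lie right of the 1.5-fold line with Miglustat.

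Timp3 showed the widest range over the arrays among the 4 inhibitors of the proteases. Its brightest probe was at 6.19 in Control, 5.89 after Miglustat, 5.62 after D-PDMP and 5.27 after D-PPMP. Control was thus the highest array and D-PPMP the lowest. The differences from Control were -0.30, -0.57 and -0.92, each with an error of 0.204, and correspond to 1.23-fold, 1.48-fold and 1.89-fold lower levels. The other probe of the gene was at 5.64, 5.60, 5.16 and 5.02, or at differences of -0.04, -0.48 and -0.63. Both probes placed the 4 arrays in the same order, which is also the order of the positions on the slide. With D-PDMP the difference stayed short of 1.5-fold on both probes. With D-PPMP it passed 1.5-fold on both, and lay between -0.96 and -0.77 over the 10 alternative ways of processing. Those that only filter dim probes cannot move the value of a single member.

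Timp1 and Timp2 stayed closer to Control. Timp1, which binds most soluble Mmp enzymes, was at 7.06, 6.98, 6.86 and 6.94 in the order Control, Miglustat, D-PDMP, D-PPMP. Timp2, which also takes part in the activation of the Mmp2 precursor at the cell surface, was at 8.23, 8.11, 8.21 and 8.10. All differences of these 2 genes were smaller than their error of 0.204. Timp4 was dim, at -4.13, -3.82, -4.29 and -3.89, with differences of 0.31, -0.16 and 0.24. Its other probe was not well above background on any array, and at the mean of both probes the differences were 0.89, 0.42 and 0.47, so the sign with D-PDMP turned.

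The promoter window of Timp3 (chr10:86300162-86300461, plus strand) is shown because its difference from Control with D-PPMP was the lowest among the 23 members measured on both arrays. Those of Adamts1 (chr16:85803064-85803363, minus strand) and Adamts9 (chr6:92943485-92943784, minus strand) are shown because both lay at least 1.5-fold above Control with Miglustat. Capitals mark GC boxes and TATAAA. No AP-1 letters stood in any of the 3 windows.
Timp3: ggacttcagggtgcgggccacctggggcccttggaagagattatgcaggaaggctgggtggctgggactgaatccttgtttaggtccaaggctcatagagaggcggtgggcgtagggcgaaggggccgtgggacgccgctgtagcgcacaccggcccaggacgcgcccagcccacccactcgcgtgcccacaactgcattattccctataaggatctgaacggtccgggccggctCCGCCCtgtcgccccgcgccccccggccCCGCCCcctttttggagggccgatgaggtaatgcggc
Adamts1: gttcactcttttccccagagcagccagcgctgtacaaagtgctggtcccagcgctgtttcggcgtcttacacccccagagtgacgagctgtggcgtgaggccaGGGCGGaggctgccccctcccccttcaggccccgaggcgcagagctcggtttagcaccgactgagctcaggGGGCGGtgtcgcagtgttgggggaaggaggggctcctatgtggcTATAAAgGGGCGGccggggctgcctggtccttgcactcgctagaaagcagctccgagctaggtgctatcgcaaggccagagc
Adamts9: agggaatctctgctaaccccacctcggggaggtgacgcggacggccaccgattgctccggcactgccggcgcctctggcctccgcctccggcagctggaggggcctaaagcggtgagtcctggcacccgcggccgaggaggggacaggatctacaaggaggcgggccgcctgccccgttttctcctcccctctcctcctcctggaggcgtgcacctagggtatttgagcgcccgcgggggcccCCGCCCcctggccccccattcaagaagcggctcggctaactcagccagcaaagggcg
In Adamts1, TATAAA begins at position -32 from the start, and GC boxes begin at -147, -76 and -25. Timp3 has GC boxes at -15 and 13, and Adamts9 has 1, at -7.

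Among the proteoglycan-cutting enzymes, Adamts1, a protease of versican and aggrecan, was at 2.98 in Control, 3.72 after Miglustat, 2.88 after D-PDMP and 2.62 after D-PPMP. The Miglustat array was the highest and the D-PPMP array the lowest. Its difference from Control was 0.74 with Miglustat, a 1.68-fold higher level, and -0.10 and -0.36 with the other two compounds. Adamts9, a versican-cutting enzyme found at the cell surface, was at -0.30, 0.50, -0.18 and -0.16. Only the Miglustat array stood apart from the rest, at a difference of 0.80 or 1.74-fold, while the others were at 0.11 and 0.14. Over the 10 alternatives, Adamts1 with Miglustat stayed between 0.74 and 0.80 and Adamts9 between 0.62 and 0.81.

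Adamts5, the main aggrecanase of mouse cartilage, was at 1.08, 1.64, 0.71 and 0.40 in the order Control, Miglustat, D-PDMP, D-PPMP. Differences from Control were 0.56, -0.37 and -0.68, so the level was 1.47-fold higher with Miglustat and 1.60-fold lower with D-PPMP. On the other probe they were 0.63, -0.32 and -0.42. The direction was thus the same on both probes with each compound. At the mean of the probes the difference with D-PPMP was -0.55, short of 1.5-fold. Adamts4, another aggrecanase, was at 0.94, 1.13, 0.88 and 0.64, which placed the arrays in the same order at smaller differences of 0.19, -0.06 and -0.30. Adamts20, known from melanoblast migration, was dim, and its differences of -0.08, 0.20 and 0.23 were smaller than their errors. Over the 5 measured enzymes of this kind, 4 lay above Control with Miglustat and 2 with each of the other compounds, where 44.5%, 49.6% and 48.5% of all genes did, and the medians were 0.56, -0.06 and -0.30. Adamts8 and Adamts15 were on no array above background. The chondrocyte markers that could accompany aggrecanases had summed linear levels of 68.1 in Control, then 88.5, 56.6 and 53.8 for Miglustat, D-PDMP and D-PPMP, largely Col2a1. Their part in these differences was not tested.

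Levels of the procollagen propeptidases stayed near Control. Adamts2, which removes the propeptide of type I procollagen, was at 5.19, 5.31, 5.15 and 4.98 on its brightest probe, and Adamts14 at 2.27, 2.13, 2.30 and 2.18. No difference of either gene was larger than 0.204 on these probes. The other probe of Adamts2 was at differences of -0.20, -0.22 and -0.28. Adamts3 was not well above background on any array.

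Of the other Adamts genes, Adamts18 and Adamts16 passed 1.5-fold at low levels. Adamts18, an enzyme without a well-established matrix substrate, was at -4.98, -4.37, -4.85 and -4.06, with differences of 0.60, 0.13 and 0.92 and errors of 0.354, 0.385 and 0.343. Its other probe was above background on no array. With normexp background correction, which pulls dim values together, the differences with Miglustat and D-PPMP were -0.06 and 0.09, so the sign with Miglustat turned. Adamts16 was at -4.24, -4.97, -4.32 and -4.16, with differences of -0.73, -0.08 and 0.08. The first of these had an error of 0.362 and was -0.09 with normexp. Adamts7, which cuts the cartilage oligomeric matrix protein, was at differences of -0.31, -0.24 and -0.15. Adamts6 and Adamts10, both linked to fibrillin microfibrils, lay between -0.23 and 0.20.

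The Mmp genes that were detected differed little from Control. Mmp2, gelatinase A, was at 4.84, 4.73, 4.75 and 4.72, and Mmp14, the membrane-bound collagenase that activates the Mmp2 precursor, at 1.86, 1.78, 1.76 and 1.74. For both genes Control was the highest array, by less than the error of 0.204. Mmp11, stromelysin 3, was at 3.39, 3.20, 3.17 and 3.09, or at differences of -0.20, -0.22 and -0.30. Mmp17, another membrane-bound enzyme, and Mmp28, epilysin, had differences between -0.20 and 0.09. Mmp19 was at 0.38, 0.67, 0.56 and 0.26 on its brightest probe, with differences of 0.30, 0.18 and -0.12. On its other, much dimmer probe the differences were 0.39, 0.17 and 0.60, so the probes disagreed with D-PPMP.

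Mmp16, a membrane-type Mmp that can activate the Mmp2 precursor, was the Mmp gene furthest from Control among those measured, and is singled out after its values were seen. It was at 1.47 in Control, 1.44 after Miglustat, 1.90 after D-PDMP and 1.99 after D-PPMP. Control and Miglustat were the lower arrays, and D-PDMP and D-PPMP the higher. The differences were -0.03, 0.43 and 0.53, and on the other probe 0.17, 0.59 and 0.73. The 1.5-fold mark was thus passed on the dimmer probe with D-PDMP and D-PPMP and on the brighter with none. With D-PPMP the difference lay between 0.42 and 0.63 over the 10 alternatives.

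**Figure D4:**
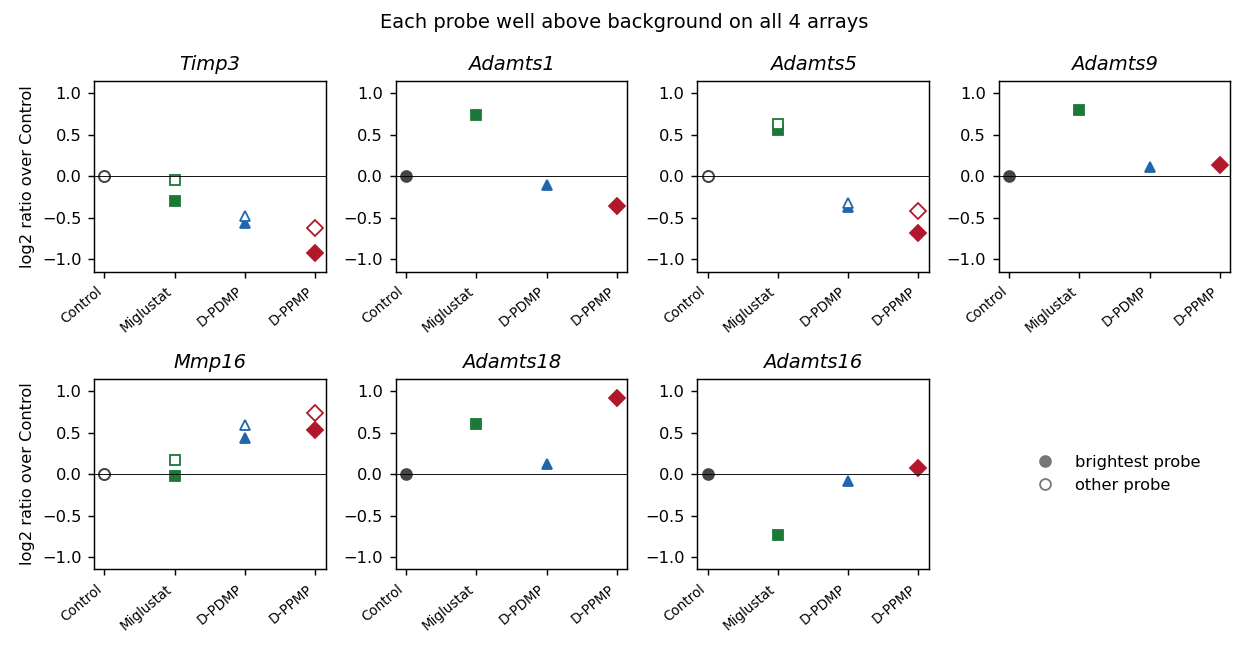
Difference from Control (y axis, log2) on each array, for the 6 members past 1.5-fold and Mmp16, with every probe that was well above background on all arrays; filled symbols are the brightest probe, open ones the other, and there is 1 array per group. Both probes of Timp3 lie lowest with D-PPMP (-0.92 and -0.63), both of Adamts5 highest with Miglustat (0.56 and 0.63), and both of Mmp16 highest with D-PPMP (0.53 and 0.73).

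The 4 members detected on some arrays only gave nominal bounds, which are not proven limits. Mmp23, a membrane-anchored Mmp, was above background with Miglustat and D-PPMP and not in Control. Its nominal bounds were 1.68-fold and 1.48-fold above Control. Mmp24, a membrane-bound Mmp known from neurons, was above background with D-PPMP only, with a nominal bound of 1.19-fold above Control. Mmp8, the collagenase of neutrophils, was above background in Control only. Its nominal bounds were 1.40-fold, 1.37-fold and 1.37-fold above the arrays with Miglustat, D-PDMP and D-PPMP. Adamts12 was above background with Miglustat and D-PDMP, with bounds of 1.14-fold and 1.02-fold. For a bound, the level of the dim probe was raised to the lowest level that counted as well above background on its array, where it lay below that. This level is no ceiling for dim probes: Mmp8 with D-PDMP, at -5.342, lay above the lowest one of -5.345. On the log2 scale the Mmp23 bounds of 0.75 and 0.56 exceeded their errors of 0.41 and 0.42. Errors were larger than the bounds for Mmp8 (0.538, 0.465 and 0.652), Mmp24 (0.545) and Adamts12 (0.471 and 0.489). Their size is thus not settled.

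Other genes of pericellular proteolysis were followed as lists. Of 21 other proteases and their regulators, 15, 16 and 16 were measured for Miglustat, D-PDMP and D-PPMP in turn, and the medians were -0.03, -0.05 and -0.09. Plau, urokinase, was at differences of 0.14, 0.45 and 0.45, but its other probe was at -0.30, 0.30 and 0.34. Reck, a membrane-anchored inhibitor of Mmp enzymes, was at 0.17, -0.17 and -0.21. Of 10 Adam genes, membrane proteases of the same superfamily, 9 were measured, and 1 was past 1.5-fold in 1 comparison: Adam23, at 0.60 with Miglustat, where 2.68% of all genes were past 1.5-fold. The sheddases Adam10 and Adam17 were at differences between -0.04 and 0.14 on their brightest probes, and the other probe of Adam10 at 0.39 with D-PDMP.

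The Adamts-like proteins share the thrombospondin repeats of Adamts enzymes and lack their protease domain. Of 7, 5 were measured, and all 5 lay above Control with Miglustat on their brightest probes, at a median of 0.20, where 44.5% of all genes did. With D-PDMP and D-PPMP 1 of 5 lay above Control, against 49.6% and 48.5% of all genes, at medians of -0.09 and -0.14. Adamtsl1 was at 0.42, -0.53 and -0.75, so 1 of the 5 was at least 1.5-fold lower with D-PPMP. The other probe of Adamtsl1 was at 0.64, 0.15 and -0.24. With Miglustat the other probes of Adamtsl5 and Thsd4 lay below Control, at -0.12 and -0.10, and that of Adamtsl4 was at 0.02. Among 20 substrates and partners of the proteases, 1, 0 and 0 of the 17, 17 and 16 measured were 1.5-fold higher and 0, 1 and 1 lower, where 1.57%, 1.34% and 2.27% of all genes were higher and 1.11%, 1.2% and 1.18% lower. The higher one was Thbs1, thrombospondin 1, at a difference of 0.82 with Miglustat and at 0.90 on its other probe. The lower one was Fbn2, fibrillin 2, at 0.24, -0.68 and -0.85, and at 0.20, -0.71 and -1.005 on its other probe. Versican, encoded by Vcan, was at 0.08, 0.13 and 0.12. Its other probes were at 0.15, 0.08 and -0.03, and at 0.04, -0.007 and -0.14, so the sign with D-PPMP turned on both. With D-PDMP, 16 of 17 of this list lay below Control at a median of -0.11, and with D-PPMP 12 of 16 at -0.15. Of all genes 50.4% and 51.5% lay below Control. Both medians were smaller than 0.204, the error of most differences of members well above background on both arrays. The comparisons share the Control array.

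Transcription factors known to act on Mmp promoters were measured in full, 14 of 14. Their medians were 0.01, 0.07 and 0.10. Fos was at 2.24 in Control, 3.30 after Miglustat, 2.999 after D-PDMP and 2.34 after D-PPMP, or at differences of 1.06, 0.76 and 0.10. It was the 1 gene of the list past 2-fold, with Miglustat, where 0.212% of all genes were at least 2-fold higher. Fosl1 was at -0.19, 0.38 and 0.73 and Junb at 0.10, 0.53 and 0.42. The other probe of Junb was at -0.12, 0.38 and 0.41, so its sign with Miglustat turned. In each comparison 1 of the 14 was at least 1.5-fold higher and 0 lower, Fos with Miglustat and D-PDMP and Fosl1 with D-PPMP, against 1.57%, 1.34% and 2.27% of all genes higher. The members with AP-1 letters in their windows, Mmp3, Mmp13 and the 6 others named above, were not well above background on any of these arrays.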

How the data were processed

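Total RNA was labelled with Cy3 by a one-colour protocol and hybridised to 1 array per group, per the labels. Images were read with Feature Extraction 12.1.1.1, per the submitters' processing notes. Its processed signal, deposited as an intensity for each spot, has the background already subtracted, per the file headers. The authors' deposited log2 table equals log2 of that signal minus the 75th percentile of the array, within 0.02 for 100% of probes, with column medians of -4.1, -4, -4 and -3.89.

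Control spots and 66 to 85 spots per array marked as outliers were left out. Where a probe had several spots, their log2 signals were averaged. The 75th percentile over 56605 probes (signals of 183 to 191) was then subtracted. Probes were matched by accession to RefSeq symbols of GRCm38.p6 (names only, since the array names build mm9): 32994 probes (58.3%) had a gene. A gene takes its brightest probe over the arrays. Another probe is given where it differs by over 0.5, for Timp3, Adamts5 and other genes the text turns on. Named with values on each array were members at least 1.5-fold from Control, all Timp genes and the best known proteases. The members and lists were chosen with earlier results of these data known. No unit other than intensity and log2 was used. With 1 array per group no test was made; the number of arrays limits the precision.

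The calling script was tested on simulated data. Normexp (offset 50, on the median spot signal), quantile and cyclic loess normalization used limma 3.58.1 in R 4.3.3. Other steps used Python 3.11.15. A gene of the list of other proteases is not reported here.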

Additional observations from a re-analysis of the deposited data

How the results depend on the processing

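Under the 10 alternatives, medians of the members kept their sign in each comparison and moved by less than the spot-based SD of a difference. Of 669 values of single members, 665 counted as unchanged. Such a value stayed within the confidence interval that the scanner software's error gives, and a difference past 1.5-fold also kept its sign. Many of the 669 values could not move, so this count says little about stability. Alternatives that only filter dim probes leave a single member's value unchanged by design. The mean of a gene's probes does the same for members with 1 probe, and the authors' table differs only by rounding. With normexp background correction, Adamts18 with Miglustat turned to -0.055 and with D-PPMP was at 0.09. At the mean of a gene's probes, Timp4 went from 0.31 to 0.89 with Miglustat and from -0.16 to 0.42 with D-PDMP. Without a filter on dim probes, 2 members after Miglustat, 2 after D-PDMP and 4 after D-PPMP were past 2-fold, against 0 in each reported comparison, and 10, 6 and 10 past 1.5-fold, against 4, 0 and 3. The mean of a gene's probes gave 1 member at 2-fold with D-PPMP, Adamts18 at 1.17, and changed the 1.5-fold split with Miglustat from 3 higher and 1 lower to 5 and 0, and with D-PPMP from 1 and 2 to 2 and 1. At 1.5-fold, Miglustat gave 2 members with normexp and 2 where a mean level above the median of probes well above background was asked for. D-PPMP also gave 2 under each of these settings, Timp3 and Adamts5, without Adamts18. D-PDMP gave 1, Timp3, when arrays were centred on the median of probes well above background on all arrays. Of the 67 values of the 7 differences past 1.5-fold, 60 stayed past it, but these too include values that could not move. No paired analysis was possible because each group has 1 array, no replicate could be left out, and the slide could not be a block since all arrays share it. The cause of these shifts was not tested.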

Other observations

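Agreement between probes of a gene was examined for the 9 other probes of members that were well above background on all arrays. They belong to Timp2, Timp3, Adamts2, Adamts5, Adamts6, Adamts10, Adamts14, Mmp16 and Mmp19. Timp3, Adamts5 and Mmp16 had the same sign on both probes with D-PDMP and with D-PPMP, and Mmp16 opposite signs with Miglustat, at -0.03 and 0.17. In Adamts2 the probes had opposite signs with Miglustat, at 0.13 and -0.20, and in Adamts10 at -0.13 and 0.12. In Adamts6 they did with D-PPMP, at -0.20 and 0.14, and in Mmp19 at -0.12 and 0.60. The other probe of Timp2 was at 0.01, -0.002 and 0.08, where the brightest was at -0.12, -0.02 and -0.13, so the signs differed with Miglustat and D-PPMP. The other probe of Mmp28, well above background on 3 arrays, was at 0.48 with D-PPMP, where the brightest was at -0.06.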
